A study of Mus musculus with 6 samples.

Results

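Binding sites of c-Myc that were listed in the mouse lung cancer lines PB119 and PB120 and in which the line PB115 had no listed peak numbered 617, out of 14193 sites in all. They were obtained by merging the authors' peak lists of the 3 lines wherever peaks overlapped by 1 bp or more, and the members were selected on the presence or absence of listed peaks alone, as the merged regions that held a peak of PB119, a peak of PB120 and none of PB115. The whole set makes up 4.35% of all merged regions and 14.1% of the 4365 regions listed in both PB119 and PB120. The other 3748 of those 4365 regions also had a PB115 peak and are called sites of all 3 lines here.

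The series mapped c-Myc by chromatin immunoprecipitation and sequencing (ChIP-seq) in PB119, PB120 and PB115, with 1 ChIP library and 1 input library (sheared chromatin without immunoprecipitation) per line. All 3 lines were handled alike per the labels: 20000000 cells were fixed in 1% formaldehyde for 10 min, quenched in 125 mM glycine and sheared by probe sonication for 4 min at 40% power, and the antibody was c-MYC D3N8F. For genotype, passage and origin of the lines, the labels used here are silent, and ChIP data do not allow the label lung cancer to be checked against expressed markers. With no replicate library, a difference between lines cannot be told apart from a difference between libraries, and no test between lines was possible.

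c-Myc is a basic helix-loop-helix leucine zipper protein that pairs with Max to contact DNA. Its preferred sequence is the E-box CACGTG, most often in GC-rich promoters that are already open, and it also binds variants such as CACGCG and promoters with no E-box. Its best known targets are genes of ribosome production, nucleotide synthesis, metabolism and cell growth.

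A set of 6 promoters at these sites shows what the underlying sequence looked like, and was picked to contrast promoters with and without the E-box. These are RefSeq promoter windows of assembly GRCm38.p6 (mm10), 250 bases before to 50 bases after the annotated start, printed 5′ to 3′ on the strand of the gene, with every CACGTG in capitals. The first 4 are the highest-ranked members with the E-box in the window: Atxn2 (ataxin 2, an RNA-binding protein; chr5:121711359-121711658, plus strand), Atg14 (a subunit of the lipid kinase complex that starts autophagosomes; chr14:47568385-47568684, minus strand), Atp7a (a copper transporter; chrX:106026974-106027273, plus strand) and Marchf8 (a membrane-bound ubiquitin ligase; chr6:116337772-116338071, plus strand), the last with 2 copies. Morn1 (chr4:155086327-155086626, plus strand), a neighbour of Rer1 whose start lies in the top-ranked member, and Zfp622 (chr15:25984116-25984415, plus strand) are from the highest-ranked members at gene ends and hold none.
Atxn2: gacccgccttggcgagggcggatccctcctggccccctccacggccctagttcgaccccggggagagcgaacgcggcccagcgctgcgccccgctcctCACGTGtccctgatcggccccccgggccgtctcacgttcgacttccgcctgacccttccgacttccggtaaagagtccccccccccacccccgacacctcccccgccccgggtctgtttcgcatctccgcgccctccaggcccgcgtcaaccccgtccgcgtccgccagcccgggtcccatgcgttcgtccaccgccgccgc
Atg14: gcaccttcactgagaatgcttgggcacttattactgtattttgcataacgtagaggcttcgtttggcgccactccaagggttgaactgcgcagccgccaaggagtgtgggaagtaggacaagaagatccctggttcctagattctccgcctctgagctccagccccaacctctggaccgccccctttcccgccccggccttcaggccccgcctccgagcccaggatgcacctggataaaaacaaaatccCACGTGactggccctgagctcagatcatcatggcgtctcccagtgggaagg
Atp7a: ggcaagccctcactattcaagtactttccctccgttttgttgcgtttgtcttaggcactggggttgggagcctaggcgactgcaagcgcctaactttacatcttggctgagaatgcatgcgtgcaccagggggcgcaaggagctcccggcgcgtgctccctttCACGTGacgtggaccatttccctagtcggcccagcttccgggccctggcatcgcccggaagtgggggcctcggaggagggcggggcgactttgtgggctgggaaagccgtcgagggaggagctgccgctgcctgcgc
Marchf8: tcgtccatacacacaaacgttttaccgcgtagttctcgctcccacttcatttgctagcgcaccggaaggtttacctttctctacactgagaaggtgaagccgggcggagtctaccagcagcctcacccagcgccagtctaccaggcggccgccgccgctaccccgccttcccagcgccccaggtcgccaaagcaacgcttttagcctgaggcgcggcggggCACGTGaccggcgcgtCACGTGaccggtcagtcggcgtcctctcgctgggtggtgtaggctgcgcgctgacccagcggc
Morn1: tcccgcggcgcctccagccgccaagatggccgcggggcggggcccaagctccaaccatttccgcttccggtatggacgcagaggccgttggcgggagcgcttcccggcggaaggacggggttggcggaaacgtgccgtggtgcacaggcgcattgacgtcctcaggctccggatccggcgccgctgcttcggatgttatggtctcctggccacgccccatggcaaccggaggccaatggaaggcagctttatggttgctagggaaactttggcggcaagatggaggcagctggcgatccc
Zfp622: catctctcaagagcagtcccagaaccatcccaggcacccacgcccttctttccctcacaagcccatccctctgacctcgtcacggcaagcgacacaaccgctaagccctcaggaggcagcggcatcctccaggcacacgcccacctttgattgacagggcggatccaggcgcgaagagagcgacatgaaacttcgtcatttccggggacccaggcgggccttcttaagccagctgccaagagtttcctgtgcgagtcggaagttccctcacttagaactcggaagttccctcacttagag

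In the Atxn2 window the E-box starts at position -152 relative to the annotated start, 42 bp from the PB119 summit and 15 bp from the PB120 summit. The Atg14 E-box starts at position -1, 27 bp from the PB119 summit and 20 bp from the PB120 summit. In Atp7a the distances were 19 bp for PB119 and 18 bp for PB120. In Marchf8 the copy at position -13 covered the PB119 summit and the copy at -29 lay 1 bp from the PB120 summit. Atxn2 had 54 ChIP fragments over its summit in PB119 and 34 in PB120, Atg14 had 40 in PB119 and 32 in PB120, Atp7a had 55 in PB119 and 48 in PB120, and Marchf8 had 40 in PB119 and 33 in PB120. Atxn2 in PB119 and Atp7a in both lines stood above the upper quartile of all members, which was 44 fragments in PB119 and 42 in PB120.

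Most members were single short peaks. In 612 of the 617 regions each line gave 1 peak, and the set held 621 PB119 peaks and 618 PB120 peaks. Members ran from 154 to 929 bp with a median of 285 bp, against a median of 527.5 bp for sites of all 3 lines. The PB119 and PB120 summits lay a median of 36 bp apart, and 538 of the 617 pairs were within 100 bp. The rule requires the peaks of both lines to overlap, so this closeness follows in part from the choice of the members. At sites of all 3 lines the median distance was 31 bp.

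The number of ChIP fragments stacked at the summit was low to middling for each list. These values come from the same lists that chose the members, and are a description only. In PB119 the members had a median of 38 fragments, with a range of 22 to 92 and middle 50% from 33 to 44, against a median of 71 at sites of all 3 lines. In PB120 the median was 36 fragments, with a range of 22 to 111 and middle 50% from 31 to 42, against 43 at sites of all 3 lines. Members thus covered almost the same absolute heights in both lines, and the gap to the common sites was wider in PB119.

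Ranked within each list, the members had a median pileup percentile of 37.3 in PB119, with middle 50% from 22.2 to 51.5. Sites of all 3 lines stood at 83.1, sites of PB115 and PB119 alone at 62.6 and sites of PB119 alone at 25.3. In PB120 the median percentile of the members was 34.6, with middle 50% from 15.7 to 54.1, against 56.8 at sites of all 3 lines and 38.3 at sites of PB120 alone. Below the 50th percentile lay 461 members (74.7%) in PB119 and 442 members (71.6%) in PB120, and 345 (55.9%) were below it in both lines. Only 1 member in PB119 and 12 in PB120 reached the top 10% of the list. Heights in the 2 lines were loosely related: Spearman's rho was 0.18 across the 617 members, and 0.51 across the 3748 sites of all 3 lines. Both correlations run over sites of the same pair of libraries and carry no test. In PB119 the middle 50% of members, 33 to 44 fragments, was narrower than the 55 to 94 of sites of all 3 lines. The part of this in the lower rho was not tested.

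**Figure D1:**
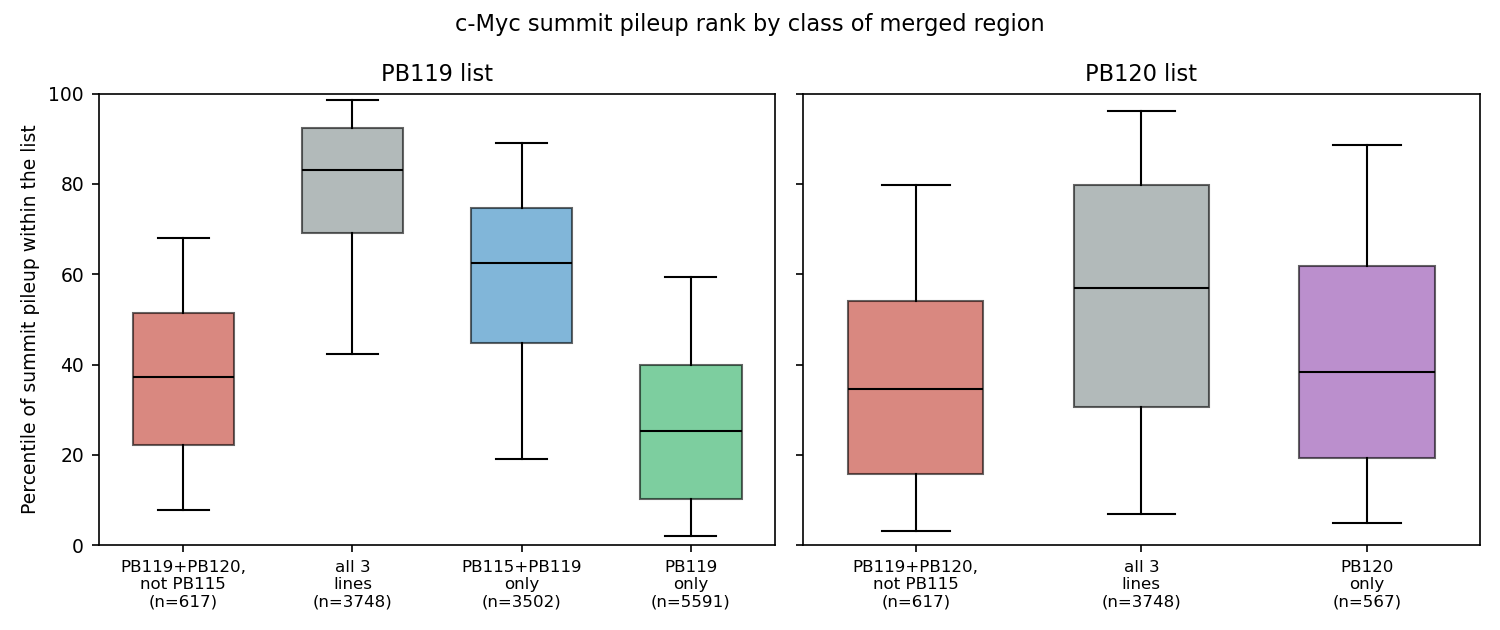
Within-list pileup percentile (y axis, 0 to 100) by class of merged region in the PB119 and PB120 lists, with box plots showing median and quartiles and whiskers at the 5 and 95 percentiles. The members, with medians of 37.3 in PB119 and 34.6 in PB120, lie below the sites of all 3 lines, with medians of 83.1 and 56.8 in the same order of lists.

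The share of PB119 and PB120 sites that lacked a PB115 peak went down with height. By quintile of the PB119 list, lowest to highest, members made up 78.0% (145 of 186), 60.9% (206 of 338), 31.4% (191 of 608), 6.28% (70 of 1115) and 0.236% (5 of 2118) of the sites listed in both lines. By quintile of the PB120 list the shares were 24.1%, 21.0%, 16.0%, 8.18% and 3.27%. Near the top of the PB119 list, then, almost every site shared with PB120 was listed in PB115 as well, while the share was higher at the top of the PB120 list.

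Depth bears on what a missing PB115 peak means. The ChIP libraries held 40726886 tags in PB119, 32299364 in PB120 and 40494386 in PB115, and the lists 13527, 5168 and 7830 peaks in the same order. The inputs, to whose depth the authors scaled the pileups, held 37979638 tags in PB119, 26156520 in PB120 and 28380432 in PB115. PB115 was thus close to PB119 in ChIP depth but not in input depth. The part of input depth in the missing PB115 peaks was not tested. The lowest listed summits had 19 fragments in PB119, 21 in PB120 and 24 in PB115. Per 10000000 ChIP tags the members had a median of 9.33 fragments in PB119 and 11.1 in PB120, against 17.4 and 13.3 at sites of all 3 lines. The median ratio of PB120 to PB119 height per tag was 1.20 at the members and 0.774 at sites of all 3 lines. The common sites were thus higher in PB119, and the members on balance higher in PB120. These heights come from the lists that chose the members. The lowest listed summits stood at 4.67 fragments per 10000000 tags in PB119 and 6.50 in PB120. The floor per tag was thus higher in the PB120 list, and its part in the ratio was not tested. The lowest listed PB115 summit stood at 5.93 fragments per 10000000 tags, and 612 of the 617 members were above that in PB119 and all 617 in PB120. Set against the tenth percentile of listed PB115 summits, 8.64, 376 members were above it in PB119 and 544 in PB120. Set against their median, 12.1, 64 were above it in PB119 and 194 in PB120. PB115 has no value at the members, since the lists hold listed peaks alone. A site without a PB115 peak was not listed at this depth and cutoff, which does not show that c-Myc was absent there.

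Few members sat right at the calling cutoff of 10 on the authors' −log10 p-value scale. Values under 15 were found for 32 members (5.19%) in PB119 and 101 (16.4%) in PB120. At sites of all 3 lines, 103 PB115 peaks (2.75%) were under 15. Just inside the cutoff stood the site of Camk2b in PB119, with 30 fragments, a fold of 4.14 and a −log10 p of 10.2, and that of Atf3 in PB120, with 24 fragments, a fold of 5.11 and 10.1. Among sites of all 3 lines the weakest PB115 peaks, which kept their regions out of the set, were at Ahdc1 with a −log10 p of 10.0 and Dtx4 with 10.2.

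Members next to the 1 bp overlap limit were few. The smallest overlap between a PB119 and a PB120 peak was 2 bp, at Psmd1, with 34 fragments in PB119 and 41 in PB120. The nearest PB115 peak was 3 bp away at Atr, the checkpoint kinase of DNA replication stress, with 32 fragments in PB119 and 27 in PB120, and that PB115 peak had 39 fragments. It was 15 bp away at Stk11 and 18 bp away at Tubb4b. A PB115 peak lay within 100 bp of 6 members, within 200 bp of 27 and within 1000 bp of 84 (13.6%), against 20.6% of PB119-only and 8.64% of PB120-only sites within 1000 bp. The median distance to the nearest PB115 peak was 29362 bp, and 491 members had one within 100000 bp. Of the regions just outside, those with the smallest PB115 overlap were Hnrnpr with 111 bp, Gadd45b with 113 bp and Zfp513 with 115 bp.

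Fold enrichment, the authors' ratio of pileup over local input background, had a median of 8.61 in PB119 (range 3.73 to 16.8) against 15.9 at sites of all 3 lines. In PB120 it was 7.94 (4.07 to 30.3) against 9.45 at sites of all 3 lines. The input background itself was alike between the classes. Relative to the genome-wide level it had a median of 1.51 at the members in PB119 and 1.54 at sites of all 3 lines, and of 1.86 in PB120 at both. A background of at least 2 times the genome-wide level was found at 139 members (22.5%) in PB119 and 280 (45.4%) in PB120, against 24.5% of the sites of all 3 lines in PB119 and 45.8% in PB120. The lowest recovered value at the members was 1.00 in both lines. The inputs held 37979638 tags in PB119 and 26156520 in PB120, and the part of input depth in the difference between lines was not tested.

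Members lay mainly at gene ends, less often than the common sites. The gene table has no strand, so an end is either border of an annotated gene. The PB119 summit was within 1000 bp of the end of a protein-coding gene at 359 members (58.2%, Wilson 95% interval 54.3 to 62.0), which is near the 57.4% of all merged regions and under the 70.4% of sites of all 3 lines. All intervals here cover counting error over regions, or over promoters where promoters are counted, only. A further 150 members (24.3%) were inside a coding gene and 108 (17.5%) outside any, against 18.7% and 10.9% at sites of all 3 lines. Sites of PB115 and PB119 alone, at 55.8%, and of PB119 alone, at 54.9%, were close to the members, and sites of PB120 alone differed, with 15.3% at gene ends. The members at gene ends were a median of 94 bp from the end, against 115 bp at sites of all 3 lines. Median fold hardly changed with position: in PB119 it was 8.92 at gene ends, 8.31 inside genes and 7.92 outside, and in PB120 it was 8.12, 7.69 and 7.83.

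**Figure D2:**
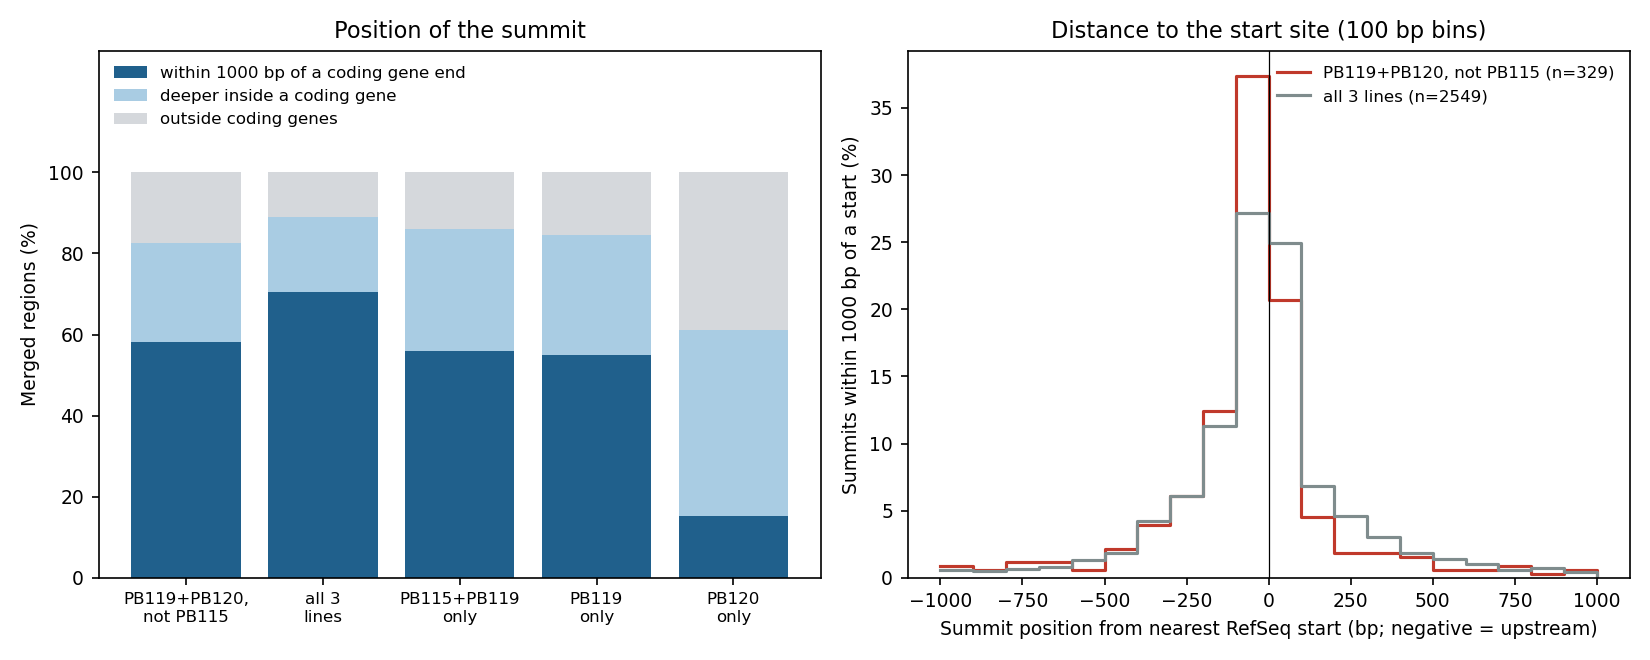
Position of merged regions by class, as the percent of regions at a coding gene end (within 1000 bp), inside a gene or outside genes, and the distance of PB119 summits from the nearest annotated start, for 329 members and 2549 sites of all 3 lines with a start within 1000 bp, in bins of 100 bp. The members have 58.2% at gene ends against 70.4% for sites of all 3 lines, and their summits gather just upstream of the start.

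Where the RefSeq promoter table gave a start and strand within 250 bp, the summits fell upstream more often than downstream. For the members, 172 of 260 PB119 summits were upstream of the start (66.2%, 60.2 to 71.6), against 54.7% at sites of all 3 lines. For PB120 it was 201 of 263 (76.4%, 70.9 to 81.2), against 64.9% at sites of all 3 lines. The interval of each member share lay above the share of the common sites, in both libraries. Relative to the start, with upstream negative, the median position was -28 bp in PB119 and -48 bp in PB120, against -11 bp and -30 bp at sites of all 3 lines. PB120 summits lay further upstream than PB119 summits at both kinds of site. Of the sites of 1 line alone, those of PB119 stood at 46.6% and those of PB120 at 71.4% (30 of 42, 56.4 to 82.8), an interval that overlaps that of the members in PB120. What sets the offset was not tested.

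In all, 360 members had a coding gene end within 1000 bp of either summit, and they touched 411 protein-coding genes, 1.88% of the 21887 in the table. At 56 members 2 or more coding genes shared the site, so the site cannot be given to 1 gene. Of the 411 genes, 67 also had a PB115 summit within 1000 bp of an end, at another place in or by the gene, and 344 had none. For those 67 genes, a site without a PB115 peak was not a gene without one. Gene borders miss starts that lie inside a gene. Counting annotated RefSeq starts as well, an alternative chosen after seeing the data, gave 440 coding genes (2.01%), and 386 members (62.6%) at an end or start by the PB119 summit, against 77.5% of the sites of all 3 lines.

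The highest-ranked members at gene ends, ordered by the lower of the 2 within-list fold percentiles, were of mixed function. At Rer1, a receptor that returns proteins to the endoplasmic reticulum (chr4:155086178-155086825), the summit had 65 fragments in PB119 and 41 in PB120, with folds of 15.2 in PB119 and 11.4 in PB120. Zfp622, a zinc finger protein of late 60S ribosomal subunit maturation (chr15:25984010-25984938), had 47 fragments in PB119 and 37 in PB120 and folds of 13.4 in PB119 and 11.5 in PB120. It was also the longest member, at 929 bp. Ccng2, cyclin G2, had 49 fragments in PB119 and 58 in PB120. Atxn2 had 54 in PB119 and 34 in PB120, with folds of 16.7 in PB119 and 10.8 in PB120. Gins4, a subunit of the GINS complex of the replicative helicase, had 54 in PB119 and 64 in PB120, with folds of 13.0 in PB119 and 13.2 in PB120. At the shared site of Abcb6 and Atg9a there were 46 fragments in PB119 and 34 in PB120. Atg9a carries lipid to growing autophagosomes, and together with Atg14, which had 40 fragments in PB119 and 32 in PB120, it gives 2 autophagy genes among the first 20 sites, although Atg9a also had a PB115 summit within 1000 bp of an end, outside the member.

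The rest of the first 20 were likewise of mixed function. Pabpc4, a poly(A)-binding protein, had 49 fragments in PB119 and 31 in PB120. The transcription factor Zbtb43 had 51 in PB119 and 46 in PB120, and Saal1 had 52 in PB119 and 32 in PB120. Kmt2a, the histone H3 lysine 4 methyltransferase also known as Mll1, had 42 fragments in PB119 and 51 in PB120 with folds of 11.1 in PB119 and 14.1 in PB120. Argonaute 1 (Ago1) had 49 in PB119 and 38 in PB120. Prpf6, a component of the spliceosome, had 58 in PB119 and 44 in PB120. Prkab1, a regulatory subunit of the energy sensor AMPK, had 48 in PB119 and 39 in PB120. The ubiquitin ligase Rnf111 had 42 in PB119 and 35 in PB120, Ccz1, part of the exchange factor for Rab7, had 49 in PB119 and 42 in PB120, and the matrix protein Thbs4 had 44 in PB119 and 39 in PB120. The remaining sites were those of Tuba1b, Lonp2 and Thap1. Tuba1b, an alpha tubulin, had 51 fragments in PB119 and 40 in PB120, but a PB115 peak began 302 bp away. Lonp2, a peroxisomal protease, had 56 in PB119 and 51 in PB120, and its nearest PB115 peak was 1068461 bp away. Thap1, described with chromosome 8, had 52 in PB119 and 69 in PB120. As counted, PB119 had more fragments at 16 of the 20 sites, but per ChIP tag PB120 was higher at 11 of the 20.

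**Figure D3:**
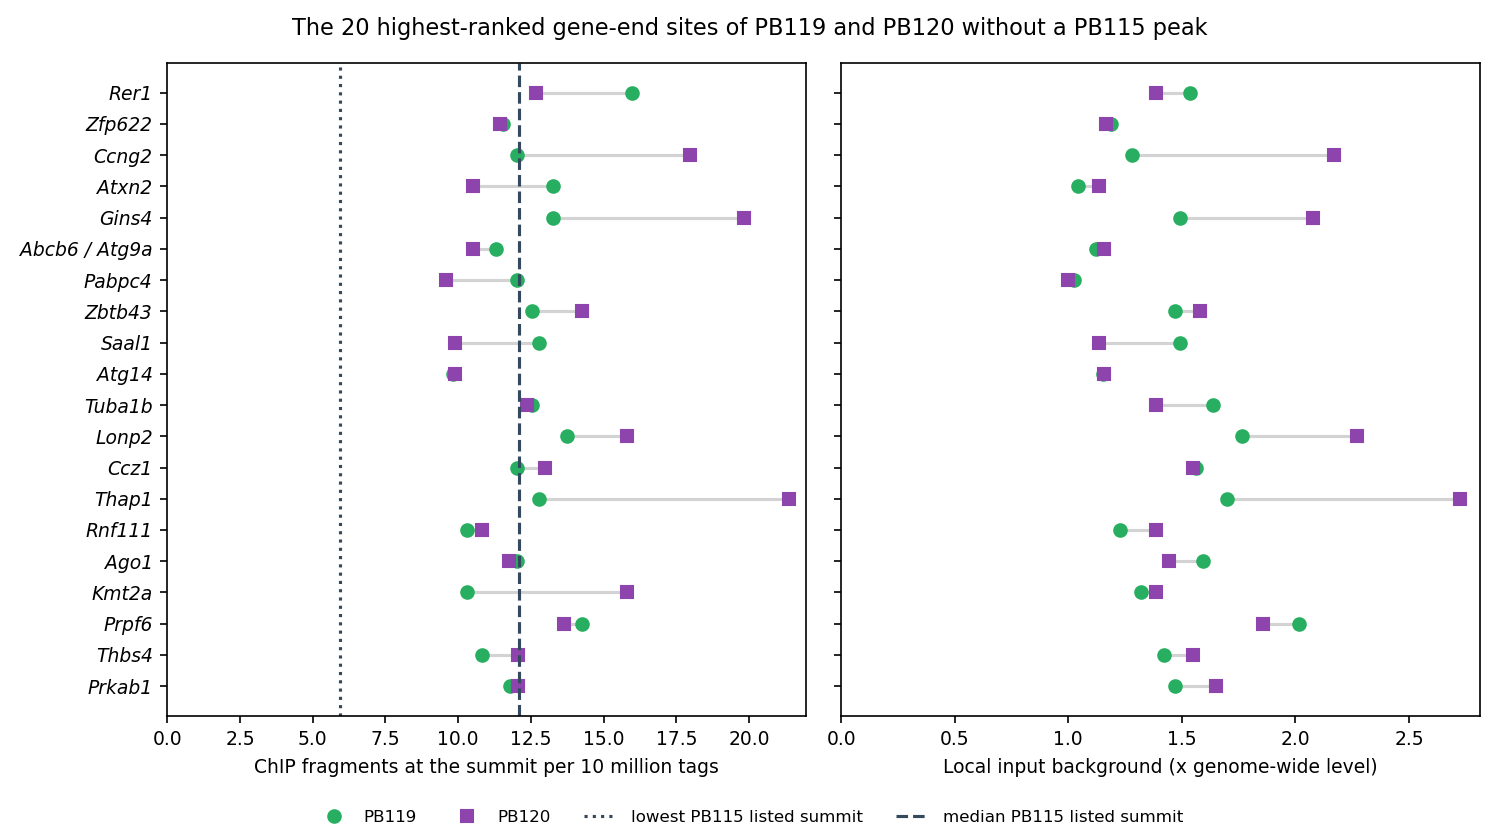
ChIP fragments at the summit per 10000000 tags (left) and local input background relative to the genome-wide level (right) at the 20 highest-ranked members at gene ends, for PB119 (circles) and PB120 (squares), with the lowest (5.93) and median (12.1) listed PB115 summits as vertical lines. Every site stands above the lowest PB115 summit in both lines, and several lie near or below the PB115 median.

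Away from gene ends, the top member lay 11561 bp from Nlgn3, which encodes a synaptic adhesion protein (chrX:101332822-101333051), with 48 fragments in PB119 and 76 in PB120 and folds of 14.1 in PB119 and 15.6 in PB120. A site inside Ttc34 had 42 in PB119 and 32 in PB120. The site by Mmd2 had 52 in PB119 and 62 in PB120, and the site inside Kif21b, a kinesin, had 47 in PB119 and 53 in PB120. A site inside Zbtb7a, a transcriptional repressor, had 41 in PB119 and 35 in PB120, with a PB115 peak 180 bp away. The others were near or inside Cela1 (44 in PB119 and 37 in PB120), Gramd4 (46 in PB119 and 39 in PB120) and Gnai2 (39 in PB119 and 39 in PB120). As counted, 3 of these 8 sites had more fragments in PB120, and per ChIP tag PB120 was higher at 7 of the 8.

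The 3 longest members were Zfp622, the shared site of Hira and Mrpl40 with 893 bp, and a site inside Bbc3 with 893 bp. Hira, a histone chaperone, had 50 fragments in PB119 and 33 in PB120, with a PB115 peak 340 bp away. Bbc3 encodes Puma, a promoter of apoptosis under p53 control, and had 37 in PB119 and 40 in PB120, with a PB115 peak 44 bp away.

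Some members lay at the end of a noncoding gene and not within 1000 bp of a coding gene border. This was the case for 34 members, and a further 223 lay at neither kind of end. The highest-ranked of the 34 were at the long noncoding RNA genes 4930404I05Rik (41 fragments in PB119 and 36 in PB120, at a site that is also 283 bp from an annotated start of the coding gene Synj1, inside that gene's borders), Gm34542 (30 in PB119 and 36 in PB120), Gm29638 (45 in PB119 and 34 in PB120) and Gm41209 (50 in PB119 and 39 in PB120), and at Mir6991, a microRNA gene (32 in PB119 and 30 in PB120). By type, counting noncoding genes at members with or without a coding gene, 12 of 408 tRNA genes (2.94%), 11 of 1004 small nuclear RNA genes (1.10%), 61 of 12727 long noncoding RNA genes (0.479%) and 3 of 1228 microRNA genes had a member summit within 1000 bp. The 12 tRNA genes shared 6 members. The member by Borcs6 on chromosome 11, with 61 fragments in PB119 and 43 in PB120, lay by n-TIaat4, n-TSgct3, n-TTagt7 and n-TWcca6. The member by Osbp on chromosome 19, with 33 in PB119 and 30 in PB120, lay by n-TRtct1, n-TVtac1 and n-TVtac2. Transfer RNA genes are read by RNA polymerase III. Summits lay at 117 tRNA genes in PB119, 61 in PB120 and 66 in PB115, and 3 of the 12 also had a PB115 summit. In the same order of lines they lay at 33, 26 and 16 small nuclear RNA genes, and at 1319, 562 and 826 long noncoding RNA genes. The share over all noncoding genes was not taken, so the shares by type have no common background here. By annotated type, no member was at one of 1340 small nucleolar RNA genes, of which 60 had a summit in PB119, 38 in PB120 and 51 in PB115. Rnu3b1, a U3 RNA gene by its symbol, was at the member by Tex14 and is typed as small nuclear RNA.

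A few members stood out by height, and were chosen after their values were seen. The highest PB120 summit was a site 4987 bp from Phf13, a chromatin-associated PHD finger protein (chr4:152000967-152001294), with 44 fragments in PB119 and 111 in PB120 and folds of 6.005 in PB119 and 30.3 in PB120. Med4, a Mediator subunit, had 43 in PB119 and 89 in PB120. A site inside Tns1 had 36 in PB119 and 80 in PB120, with folds of 10.9 in PB119 and 21.9 in PB120. The nearest coding gene end, that of Rufy4, was 55319 bp away. The highest PB119 summit lay 36527 bp from Ccr1, the nearest coding gene, and 451 bp from a start of the long noncoding RNA gene Gm51701. This site had 92 fragments in PB119 and 75 in PB120. Its input background, however, was 8.57 times the genome-wide level in PB119 and 7.62 times in PB120. Its folds were 4.82 in PB119 and 5.14 in PB120. That member is high in both ChIP libraries and in both inputs.

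Among gene groups, subunits of the proteasome and of the respiratory chain had the largest shares at member sites. Each share is read against the 1.88% of all coding genes, and against genes with summits of both PB119 and PB120, of which 361 of 3514 (10.3%) had no PB115 summit by an end. Of 48 proteasome genes 5 (10.4%) were at members: Psma5, Psmb1, Psmc4, Psmd1 and Psmd9. Summits of both lines were found at 21 of the 48, and the same 5 of these 21 lacked a PB115 summit. With RefSeq starts counted too, Psma6, with 43 fragments in PB119 and 31 in PB120, made it 6 of 48 (12.5%), against 2.01% of all coding genes, and 6 of the 22 with summits of both lines had none of PB115, against 9.79% of all such genes. Of 93 oxidative phosphorylation genes 9 (9.68%) were at members, and of the 33 with summits of both lines 7 had no PB115 summit. The groups are small, share no replicate and were listed with earlier results known, so the shares are a description of these 3 libraries.

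Psma5, a subunit of the proteolytic core, had 45 fragments in PB119 and 28 in PB120. Psmc4, an ATPase of the regulatory particle, had 40 in PB119 and 36 in PB120 with folds of 9.34 in PB119 and 9.32 in PB120. Psmd1, a scaffold subunit of that particle, had 34 in PB119 and 41 in PB120. Psmb1, of the core, had 42 in PB119 and 24 in PB120, and Psmd9, an assembly chaperone, had 42 in PB119 and 38 in PB120. All 5 were above the lowest listed PB115 height in both lines, with the nearest PB115 peak at least 23587 bp away.

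The respiratory chain genes came from several complexes. For complex I, Ndufc2 had 71 fragments in PB119 and 34 in PB120, and Ndufb7 had 44 in PB119 and 71 in PB120, the reverse order. Ndufa13 had 54 in PB119 and 53 in PB120, and Ndufb6 had 40 in PB119 and 35 in PB120, but both also had a PB115 summit within 1000 bp of an end, outside the member. The Ndufa13 site was shared with Tssk6. Sdhb, the iron-sulfur subunit of complex II, had 38 in PB119 and 48 in PB120. Uqcrc1 of complex III had 32 in PB119 and 31 in PB120, and Cox4i1 of complex IV had 35 in PB119 and 34 in PB120, at a site shared with Emc8. For the ATP synthase, Atp5mpl had 39 in PB119 and 34 in PB120 and Atp5o had 37 in PB119 and 29 in PB120. Ndufa13, Ndufb7 and Cox4i1 lie on chromosome 8, where members were more frequent than elsewhere, as given further on.

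In the other groups few genes were at members. Of 78 mitochondrial ribosomal protein genes 4 (5.13%) were at members, namely Mrpl10, Mrpl3, Mrpl40 and Mrps34, and these were the 4 without a PB115 summit among the 34 with summits of both lines. Mrpl3 had 43 fragments in PB119 and 33 in PB120. The site of Mrpl10 was shared with Lrrc46, that of Mrpl40 with Hira and that of Mrps34 with Eme2. Of 72 chromatin genes 3 (4.17%) were at members: Kmt2a, Setdb1, a histone H3 lysine 9 methyltransferase with 33 fragments in PB119 and 37 in PB120, and Cbx8, a Polycomb subunit with 31 in PB119 and 36 in PB120. Of 53 cell cycle and replication genes 2 were at members, the transcription factors E2f1, with 38 fragments in PB119 and 27 in PB120, and E2f2, with 42 in PB119 and 27 in PB120. Of 47 lysosome and autophagy genes 4 (8.51%) were at members, but Atg9a, Atp6v0c and Gabarap also had PB115 summits, and Tfeb, the transcription factor of lysosomal genes, had none, with 30 fragments in PB119 and 33 in PB120. The Gabarap site was shared with Ctdnep1. Solute carriers gave 8 of 373 (2.14%), among them Slc25a4, Slc25a36, Slc25a41 and Slc25a42 of the mitochondrial carrier family. The Slc25a41 site was shared with Khsrp. Tmem genes gave 8 of 236 (3.39%) and Zfp genes 6 of 397, and with RefSeq starts counted they gave 10 of 236 (Tmem176b and Tmem219 added) and 7 of 397 (Zfp638 added). That count also added Bbc3 to the apoptosis and p53 list, and no gene to any other list.

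Single genes of other groups were Kif2c, a mitotic kinesin with 51 fragments in PB119 and 34 in PB120, Pfkm of glycolysis with 28 in PB119 and 31 in PB120, and Srebf2, the transcription factor of sterol synthesis, with 42 in PB119 and 30 in PB120. The Pfkm site was shared with Senp1. Hes6, a basic helix-loop-helix factor of neuroendocrine cells, had 31 in both. Polrmt, the mitochondrial RNA polymerase, had 40 in PB119 and 33 in PB120, and Rars, a tRNA synthetase, had 45 in PB119 and 40 in PB120. Gpr19 had 32 in PB119 and 31 in PB120, with a PB115 peak 354 bp away. That gene also had a PB115 summit within 1000 bp of an end, outside the member. The Trp53 site, shared with Wrap53, had 30 fragments in PB119 and 48 in PB120, with a PB115 peak 641 bp away.

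Lists of the groups most often linked to Myc had few or no genes at members. None of 61 ribosome biogenesis genes and none of 36 nucleotide and polyamine synthesis genes was at a member, though PB119 and PB120 both had summits at 49 of the ribosome biogenesis genes and 24 of the nucleotide and polyamine genes. At each of those 49 and 24 genes PB115 had a summit too. At the 1.88% of all coding genes, lists of this size would hold about 1 gene or fewer. The counts of 0 stand near that background. Of all genes with summits of both lines, 361 of 3514 (10.3%) had no PB115 summit. The counts here were 0 of 49 and 0 of 24, under that share. Zfp622 of 60S maturation, Ddx47 and Nol10, nucleolar proteins, are not on the list and were at members. Of 86 cytosolic ribosomal protein genes 1, Rpl18, was at a member, with 26 fragments in PB119 and 36 in PB120, while 62 had summits of both lines. The PB119 summit of that member also lay 44 bp from an annotated start of Sphk2. With RefSeq starts counted, 65 of the 86 genes had summits of both lines, and 0 of these lacked a PB115 summit. Of the 45 genes on the splicing list none was at a member, and the 28 with summits of both lines all had a PB115 summit as well, but Prpf6 and Snrnp200, spliceosome genes that the list does not hold, were at members. No member was at a listed gene of the circadian, Myc and Max network, Wnt, TGF-beta and Hedgehog, histone, other lung cell type or olfactory receptor lists. The histone list was drawn by symbol and left out symbols such as those of the H4 family, of which H4c3 was at a member. The genes named here from outside the lists were chosen after their values were seen.

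**Figure D4:**
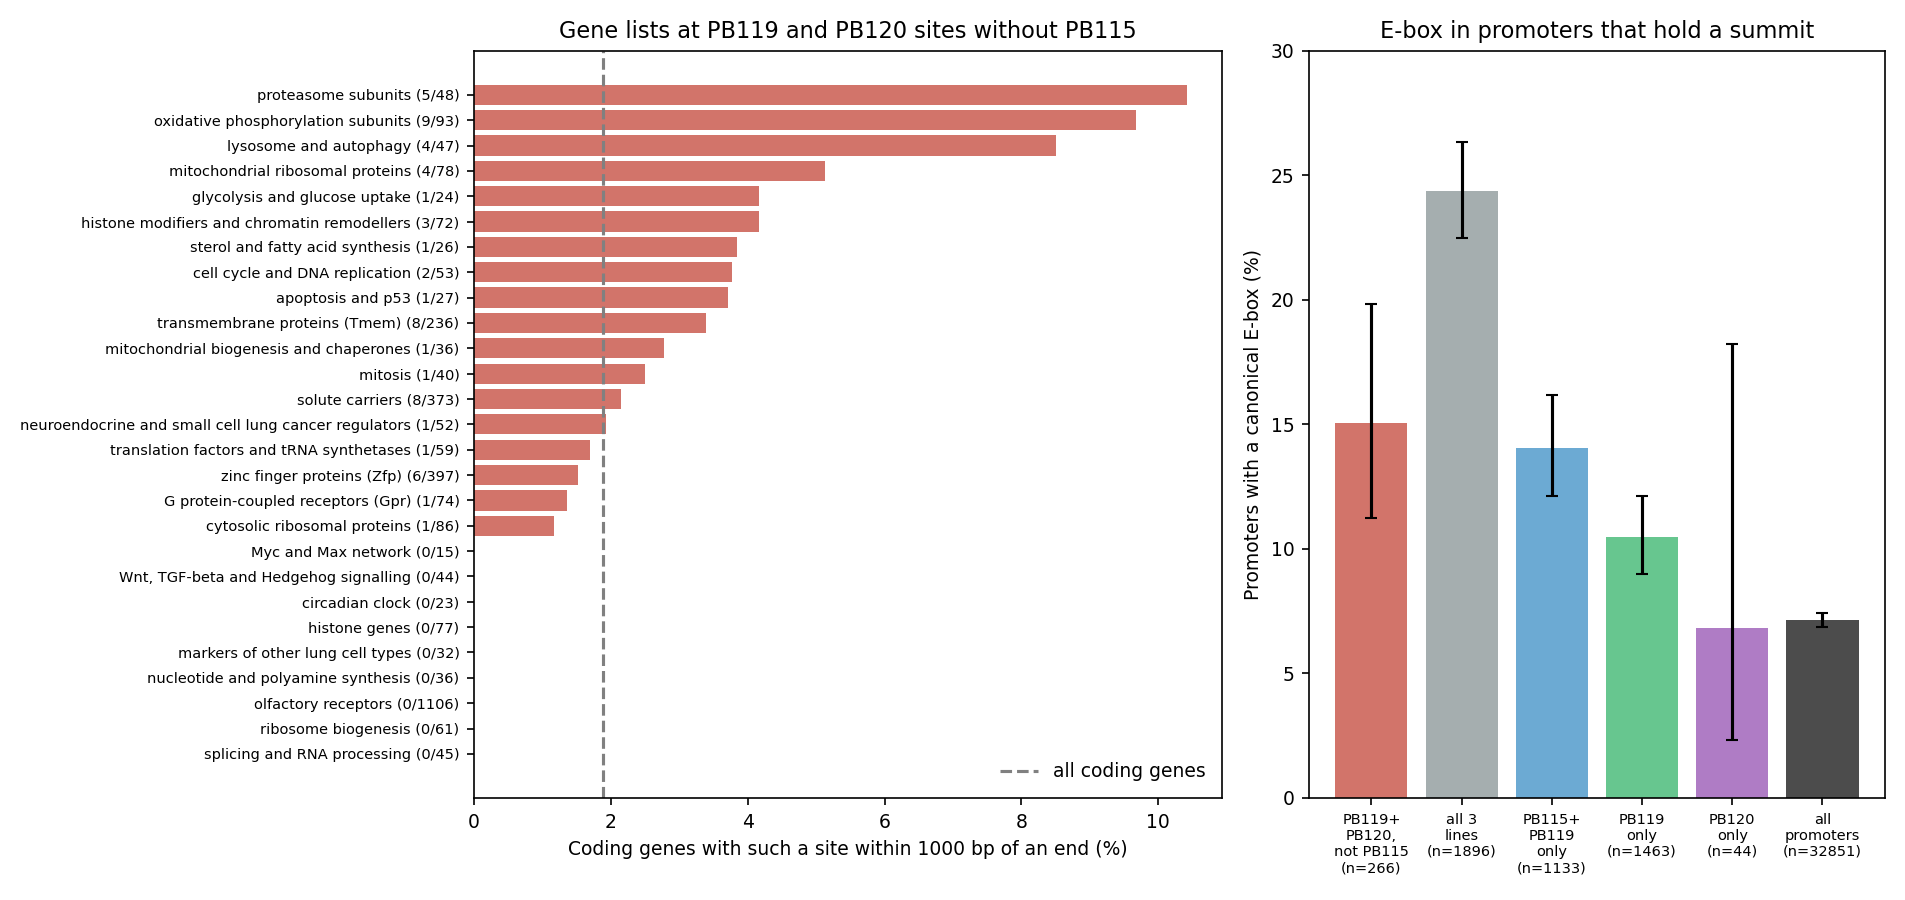
Percent of the genes of each list with a member summit within 1000 bp of an end (left, with the 1.88% of all coding genes as a line), and percent of promoters with CACGTG by class of site (right, with Wilson 95% intervals). Proteasome (10.4%) and oxidative phosphorylation (9.68%) lead the lists, and member promoters (15.04%) lie between all promoters (7.15%) and promoters of sites of all 3 lines (24.4%).

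The E-box was less frequent in member promoters than in those of the common sites. A RefSeq promoter window with a summit of either line was found for 223 members, giving 266 promoters. CACGTG, which reads the same on both strands, was in 40 of the 266 (15.04%, 11.2 to 19.8), against 462 of 1896 (24.4%, 22.5 to 26.4) at sites of all 3 lines, 14.0% at sites of PB115 and PB119 alone and 10.5% at sites of PB119 alone. All promoters in the table held it in 7.15%. Of the member promoters 12 (4.51%) held 2 or more copies, against 3.22% at sites of all 3 lines. CACGCG, searched on both strands as CACGCG and CGCGTG, was in 20.7% of member promoters, against 37.7% at sites of all 3 lines and 9.27% of all promoters. The GC box GGGCGG, searched with CCGCCC, was in 73.7% of member promoters, against 72.1% at sites of all 3 lines and 35.7% of all promoters. CATGTG, searched with CACATG, was in 7.89% of member promoters, against 9.49% at sites of all 3 lines and 14.2% of all promoters. Median GC content was 62.8% in member promoters, against 64.3% at sites of all 3 lines and 52.7% in all promoters. Members were also lower in pileup than sites of all 3 lines, as given above, and the part of that in the E-box share was not tested.

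The distances from the copies to the summits are a description only. Across the member promoters there were 55 copies of CACGTG, a median of 36 bp from the PB119 summit, with 36 copies within 50 bp and 48 within 100 bp. The short windows were kept because they held a summit of either line, so short distances follow in part from that choice. The distances were not compared with those of another motif or of the common sites, so closeness beyond that choice was not tested. Overlapping windows, of neighbouring genes or of several starts of 1 gene, can count the same copy more than once. A match is a stretch of letters and was not tested as a binding site.

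Chromosome 8 held more members than any other. Of 329 regions on it listed in PB119 and PB120, 76 (23.1%, 18.9 to 27.9) lacked a PB115 peak, against 541 of 4036 (13.4%, 12.4 to 14.5) on all other chromosomes. Among the 19 other chromosomes the share ran from 10.8% on chromosome 11 to 17.4% on chromosome 6. Put otherwise, 12.3% of the members were on chromosome 8, against 6.75% of the sites of all 3 lines. The chromosome was chosen because it had the highest share, so this is a description.

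Values of the PB120 libraries were also higher on chromosome 8. Of all listed peaks 5.20% in PB119, 8.20% in PB120 and 5.12% in PB115 were on chromosome 8, and sites of PB120 alone had 13.8% of their number there. The PB120 input background at sites of all 3 lines had a median of 2.58 on chromosome 8 and 1.81 elsewhere, against 1.75 and 1.52 in PB119 and 1.87 and 1.61 in PB115. At the members it was 2.43 on chromosome 8 and 1.75 elsewhere in PB120, and 1.78 and 1.51 in PB119. ChIP fragments of PB120 at the members had a median of 41 on chromosome 8 and 35 elsewhere, whereas in PB119 they were 39.5 and 38. Median PB120 fold did not follow, at 7.54 on chromosome 8 and 7.97 elsewhere. The ratio of PB115 to PB120 height per tag at sites of all 3 lines was 0.872 on chromosome 8 and 1.13 elsewhere, and the ratio of PB115 to PB119 height was 0.871 and 0.872. The higher share on chromosome 8 thus coincided with higher PB120 input background and more PB120 ChIP fragments there, and their part in the result was not tested.

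**Figure D5:**
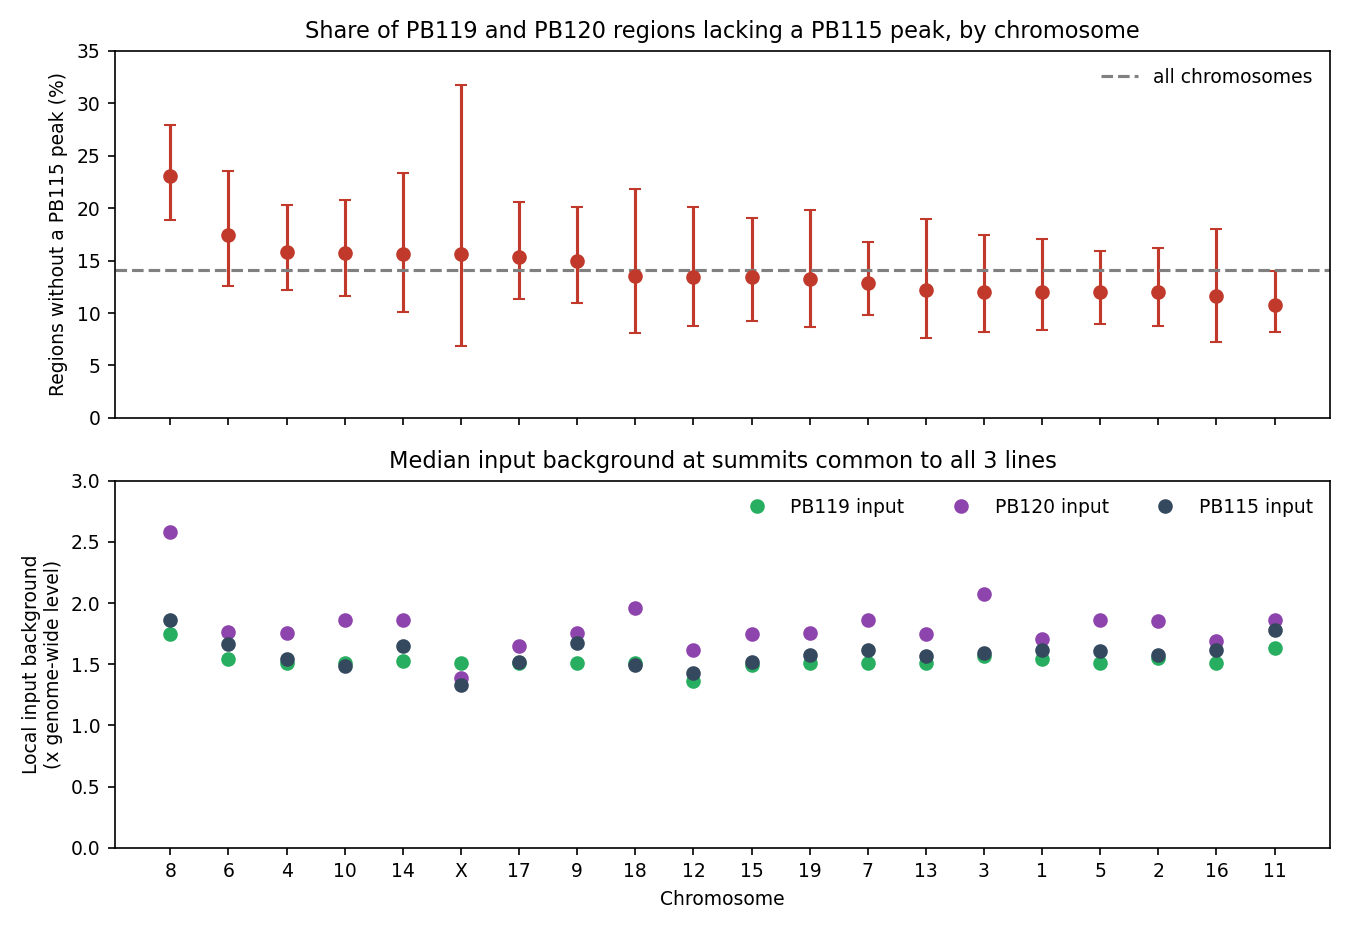
Percent of regions listed in PB119 and PB120 that lack a PB115 peak, by chromosome with Wilson 95% intervals, and median input background at sites of all 3 lines by chromosome and line. Chromosome 8 stands at 23.1% against 10.8% to 17.4% on the others, and its PB120 background is 2.58 times the genome-wide level.

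The share was higher on chromosome 8 in every quintile of PB119 height. By quintile of the PB119 list, lowest to highest, members were 100% (12 of 12), 78.8%, 45.5%, 12.6% and 0.746% (1 of 134) of the PB119 and PB120 sites on chromosome 8, against 76.4%, 59.0%, 30.02%, 5.69% and 0.202% (4 of 1984) elsewhere. Only at 12.6% against 5.69% did the 95% intervals not overlap (7.38 to 20.8 against 4.42 to 7.28). The split does not hold PB120 height alike, and PB120 fragments at the members were higher on chromosome 8, as given above. Along the chromosome, in 4 equal stretches from its start, the shares were 18.8%, 20.8%, 26.7% and 21.3%, and the PB120 background was 2.38, 2.31, 2.68 and 2.48. With a −log10 p of at least 20 required in PB119 and PB120, 27 of 225 sites on chromosome 8 lacked a PB115 peak (12.0%), against 177 of 2626 elsewhere (6.74%). On chromosome 8, 67.1% (55.9 to 76.6) of members were at gene ends, against 56.9% (52.7 to 61.0) elsewhere.

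The top members on chromosome 8 were Gins4 and Lonp2, given above, and Thap1, Got2 and Cdkn2aip. Thap1, a zinc finger transcription factor, had 52 fragments in PB119 and 69 in PB120, with a PB115 peak 159 bp away. Got2, mitochondrial aspartate aminotransferase, had 51 in PB119 and 47 in PB120, with a PB115 peak 111 bp away. Cdkn2aip, a regulator of the Arf and p53 pathway, had 48 in PB119 and 50 in PB120, with the nearest PB115 peak 38201 bp off. Ndufb7, Ndufa13, Cox4i1, Slc25a4 and Slc25a42, named among the gene groups, also lie on chromosome 8.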

How the data were processed

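Each of the 3 c-Myc ChIP libraries was peak-called by the authors against the input of its own line, and the 3 peak lists were the files used here; the inputs entered through that calling alone. The headers of the deposited lists name MACS 2.1.0.20140616, a p-value limit of 1e-10, at most 1 tag kept per position, an effective genome size of 2.70e+09 and a local background over 1000 and 10000 bp. The submitters' processing notes also name Bowtie, SAMtools and mm10; the versions of both read tools were not given in the sources used here. The deposited pileup is a signal, the fragment coverage at the summit scaled by the authors to the depth of the input. Rescaling by the tag ratio gave whole fragments within 0.02. The deposited fold is a ratio of pileup to local background with 1 added to both, from which the background was recovered. The deposited −log10 p-value and q-value are those of single peaks.

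Peaks overlapping by 1 bp were merged across lists. Merging was tested on simulated peaks. A member with several peaks of a line took the one of highest fold. Genes (49943, of which 21887 protein-coding) and promoters came from RefSeq tables of GRCm38.p6. Shares have Wilson 95% intervals, and no tests were run because each line had 1 library. The members and gene lists were chosen with earlier results of these data known. Named genes follow a fixed order, by the lower of the within-list fold percentiles in PB119 and PB120: the first 20 at coding gene ends, 8 away from them, 5 at noncoding ends, the 3 longest, the first 5 on the chromosome with the highest share, genes of the lists at a member (1 is not reported here), and the members next to each threshold. Alternatives were another overlap, p-value, list length, window, ranking and averaging, and, chosen after seeing the data, leaving out chromosome 8 and counting RefSeq starts beside gene ends. Python 3.11.15, pandas 2.3.3, numpy 2.4.6, scipy 1.17.1 and matplotlib 3.10.9 were used.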

Additional observations from a re-analysis of the deposited data

How the results depend on the processing

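The number of regions depended most on how strictly the peaks were taken: there were 204 with a −log10 p of at least 20 in PB119 and PB120 only, and 336 with the 3 lists shortened to equal length, against 617. With at least 20 in all 3 lists it was 433. That setting also drops PB115 peaks under 20, so the 433 can include regions with a listed PB115 peak. With those PB115 peaks kept, the count was the 204 above. It was 554 with a 50% reciprocal overlap and 533 without regions that had a PB115 peak within 1000 bp. Without chromosome 8, chosen after seeing the data, it was 541. The share at coding gene ends was 52.5% with a window of 500 bp and 71.0% with 5000 bp, and 62.6% with RefSeq starts counted as well, chosen after seeing the data, which gave 440 coding genes in place of 411. Mean input background was 1.71 in PB119 and 2.04 in PB120, and the PB120 median without chromosome 8 was 1.75. The share of chromosome 8 was 12.0% at a −log10 p of at least 20, against 6.74% on all other chromosomes. Taken over all merged regions, a larger denominator, it was 9.67%, against 4.04% on all other chromosomes. The changes of window, starts counted, averaging and denominator alter what is measured. The cause of the other changes was not tested. The remaining alternative values, like the 433, 554, 533, 541 and 440, stayed within 1.5 times the reported count or within the 95% counting interval of the reported share or median. No paired analysis was possible because no test was run and each line had 1 library. PB115 sites below the cutoff are not in the lists, so their height is unknown.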
